A study of Mus musculus with 8 samples.

Results

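Integrins and dystroglycan are the receptors through which a cell holds its basement membrane and the surrounding matrix. Here 10 of their genes were followed, selected by symbol: the alpha chains Itga1, Itga3, Itga5, Itga6, Itga7 and Itgav, the beta chains Itgb1, Itgb4 and Itgb5, and Dag1, which encodes dystroglycan. All 10 were found among the 21812 gene symbols of the deposited table, and all 10 passed the filter on low values. RNA of mouse embryonic stem cells in a medium that induces primitive endoderm was sequenced in 8 libraries of 4 groups, 2 libraries each. Each of 2 lines, Mettl3 and Virma, had a WT and a cKO group, with the genotype given as WT, Mettl3_cKO or Virma_cKO. Mettl3 and Virma encode parts of the enzyme complex that puts N6-methyladenosine (m6A) on RNA, its catalytic core and a scaffold. The strain, the way the conditional alleles were deleted, the number of clones and whether the 2 libraries of a group came from separate cultures were not stated in the labels used. The p-values below set differences between groups against the spread of libraries within groups, and that spread may therefore be technical.

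An integrin is a pair of an alpha and a beta chain, and the pair sets the ligand. Beta 1 joins most alpha chains: with alpha 3, alpha 6 or alpha 7 it binds laminin, with alpha 1 collagen, and with alpha 5 fibronectin. Beta 4 pairs with alpha 6 alone and anchors keratin at hemidesmosomes, and beta 5 pairs with alpha v and binds vitronectin. Dystroglycan is made as a single precursor that is split into an outer chain, whose sugars bind laminin, and a membrane chain that binds dystrophin or utrophin. Primitive endoderm, the layer that borders the blastocyst cavity, secretes the laminin and collagen IV of the first basement membranes of the embryo.

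Promoter sequence was at hand for 7 of the 10 genes, from RefSeq on build GRCm38.p6; Itga6, Itga7 and Itgb4 were the other members. The 250 bases before the outermost annotated start are shown for Dag1, Itga1 and Itga5, each 5′ to 3′ on the strand of the gene. Dag1 and Itga1 were higher in both knockouts than in their own WT, and Itga5 was lower in Virma cKO. Capitals mark GGGCGG, the GC box of housekeeping-type promoters, or its reverse complement CCGCCC.
Dag1, chr9:108263959-108264208, minus strand: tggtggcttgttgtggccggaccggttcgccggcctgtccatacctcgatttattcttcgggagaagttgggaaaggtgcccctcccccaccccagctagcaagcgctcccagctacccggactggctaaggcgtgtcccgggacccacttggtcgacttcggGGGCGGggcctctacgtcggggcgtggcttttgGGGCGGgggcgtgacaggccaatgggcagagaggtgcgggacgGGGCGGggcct
Itga1, chr13:115101965-115102214, minus strand: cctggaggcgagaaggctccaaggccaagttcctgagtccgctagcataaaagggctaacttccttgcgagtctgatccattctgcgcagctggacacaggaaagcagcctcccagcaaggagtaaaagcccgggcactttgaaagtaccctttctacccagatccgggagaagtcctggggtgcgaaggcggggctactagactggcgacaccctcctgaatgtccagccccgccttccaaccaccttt
Itga5, chr15:103366792-103367041, minus strand: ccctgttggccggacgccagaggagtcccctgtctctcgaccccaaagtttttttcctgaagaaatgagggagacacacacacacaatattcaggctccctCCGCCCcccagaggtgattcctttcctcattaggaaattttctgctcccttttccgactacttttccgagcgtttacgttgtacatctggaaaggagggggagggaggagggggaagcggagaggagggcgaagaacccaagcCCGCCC
The Dag1 window held 3 GC boxes, the Itga5 window 2 and the Itga1 window 0. GGGCGG, searched on both strands, stood in 5 of the 7 member windows and in 32.7% of the 32851 windows of the same length in the table. ACAANG, the core letters of SOX sites, stood in 2 of the 7 and in 36.3% of all windows. The GATA letters WGATAR were in 0 of the 7 member windows and in 26.5% of all. TGANTCA, the AP-1 letters, was in 0 of the 7 and in 6.75% of all. GC content of the 7 windows ran from 55.6% in Itga5 to 68% in Itgb1.

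By their spacing, the values are gene counts that had been multiplied by 1 factor per library and rounded before deposit, and the upper quartile lay between 601.25 and 602 in every library. The same spacing put the depth at about 6199878 and 6702210 reads in Mettl3 WT against 15995530 to 25604715 in the other 6 libraries, and low values in Mettl3 WT rest on the fewest reads. The Mettl3 gene stood at 596 and 588 in Mettl3 WT and at 588 and 560 in Mettl3 cKO (log2 fold change −0.04 ± 0.06 SE, adjusted p = 0.56), so its level did not separate these groups; the labels used do not say which exons were deleted, and a count over the whole gene may include reads outside them. Virma fell in Virma cKO by 0.35 on the log2 scale (SE 0.05, adjusted p = 1.83e-06), with 1564 and 1488 in WT and 1173 and 1214 in cKO. The Mettl3 gene also fell there, by 0.43 (SE 0.06, adjusted p = 4.97e-06), and was higher in Virma WT than in Mettl3 WT, by 0.35 (adjusted p = 1.03e-04), so the fall of Virma was not peculiar to the targeted gene. Groups are called by their labels below. All 10 primitive endoderm markers listed were lower in Virma cKO and 7 of 10 in Mettl3 cKO, with summed values of 34386 to 34646 in WT and 23644 to 23999 in cKO of the Mettl3 line, and 43906 to 44623 in WT and 5490 to 5573 in cKO of the Virma line. Fibroblast markers moved the other way: 8 of 10 rose in Mettl3 cKO and 9 of 10 in Virma cKO, none fell in either, and none was at 0 in all libraries. Over all genes tested, 57.4% were called in Mettl3 cKO (28.1% higher, 29.3% lower). In Virma cKO 61% were called (29.2% higher, 31.8% lower). The fibroblast markers summed to 2602 and 2787 in WT and 5120 and 5086 in cKO of the Mettl3 line. In the Virma line they summed to 6728 and 6700 in WT and 15581 and 15245 in cKO. Several members are also expressed by fibroblasts and endoderm, and the part of these shifts in the results below was not tested. In bulk RNA, fewer cells of a type and less RNA per cell cannot be told apart.

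In Virma cKO 7 of the 10 genes rose against Virma WT, 2 fell and 1, Itga7, did not pass the test, where 61% of all 14287 genes tested passed it (29.2% higher, 31.8% lower). The median log2 fold change of the 10 was 0.45, beside 0.00 over all genes tested. In Mettl3 cKO 4 rose and 2 fell against Mettl3 WT, where 57.4% of all genes passed (28.1% higher, 29.3% lower), and the median was 0.05, beside 0.00. The share of members called in Mettl3 cKO was thus close to that of all genes. Passing means an adjusted p under 0.05 in limma, a linear model with a shared estimate of spread across genes, fitted to log2(value + 1), a scale that understates the change of low genes. When libraries were scaled by their totals, 5752 genes were higher and 3184 lower in Virma cKO, against 4176 and 4540 as deposited, and the same 9 members passed in the same directions. The libraries of the groups did not overlap for 9 members in the Virma line, where this held for 83.2% of all genes tested, and for 7 members in the Mettl3 line, where it held for 73.6%, so neither count stands far from its background.

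**Figure D1:**
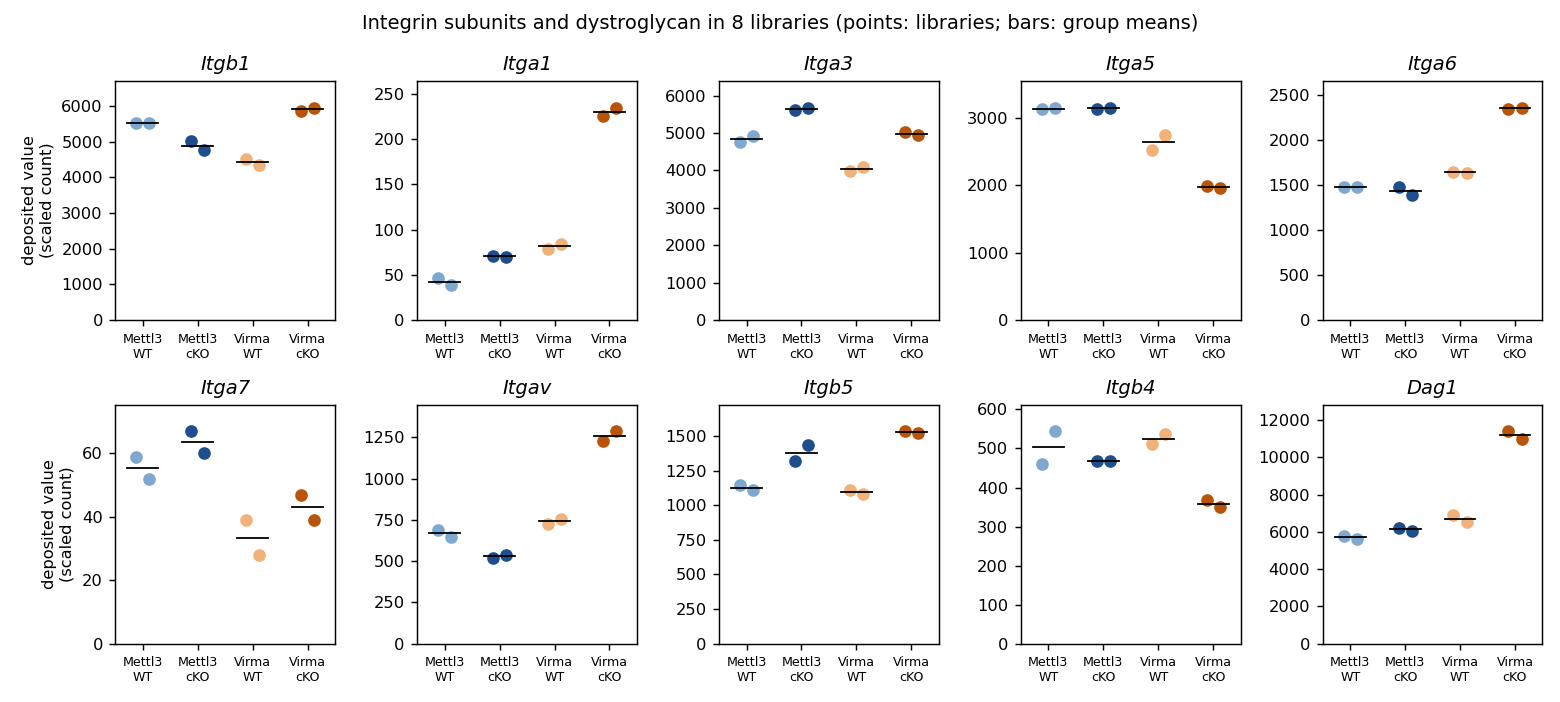
Deposited values (gene counts scaled to a common upper quartile) of the 10 genes, with a panel for each gene, the 4 groups on the x axis and a linear y axis from 0. Points are the 2 libraries of a group and bars their mean; the Virma cKO libraries lie above all others for Itga1, Itga6, Itgav, Itgb1, Itgb5 and Dag1 and below all others for Itga5 and Itgb4.

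Itgb1 encodes the beta 1 chain, which most alpha chains need to reach the surface. It read 5508 and 5513 in WT and 5003 and 4751 in cKO of the Mettl3 line. In the Virma line it read 4521 and 4337 in WT and 5863 and 5950 in cKO. The knockout libraries were thus the lower ones in the Mettl3 line and the higher ones in the Virma line. Itgb1 fell by 0.18 on the log2 scale in Mettl3 cKO (SE 0.03, adjusted p = 6.32e-05) and rose 1.33-fold in Virma cKO (log2 0.42 ± 0.03 SE, adjusted p = 4.16e-10). The WT libraries of the 2 lines also differed, with Virma WT lower by a log2 difference of −0.32 ± 0.03 SE (adjusted p = 6.13e-08). Against Virma WT in place of Mettl3 WT, Itgb1 in Mettl3 cKO was higher, at 0.14 (adjusted p = 6.67e-04).

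Among the laminin-binding alpha chains, Itga3 had the highest level per kilobase of exon. Its deposited values were 4766 and 4914 in WT and 5615 and 5679 in cKO of the Mettl3 line, and 3984 and 4091 in WT and 5026 and 4933 in cKO of the Virma line. Both knockouts lay above their own WT with no overlap, by a log2 fold change of 0.22 ± 0.03 SE in the Mettl3 line (adjusted p = 1.93e-06) and 0.30 ± 0.03 SE in the Virma line (adjusted p = 1.96e-08). Itga6, whose product pairs with beta 1 or beta 4, read 1478 and 1473 in WT and 1484 and 1389 in cKO of the Mettl3 line, which overlapped (−0.04 ± 0.04 SE, adjusted p = 0.442). In the Virma line it read 1650 and 1634 in WT and 2344 and 2361 in cKO, a 1.43-fold rise (0.52 ± 0.04 SE, adjusted p = 1.52e-09). Itga7, best known from muscle, was low in every group: 59 and 52 in WT and 67 and 60 in cKO of the Mettl3 line, and 39 and 28 in WT and 47 and 39 in cKO of the Virma line. Its values stand for about 19 to 71 reads a library, and neither knockout passed the test against its WT (0.19 ± 0.23 SE, adjusted p = 0.487, and 0.36 ± 0.23 SE, adjusted p = 0.171). The 95% interval in Virma cKO, −0.11 to 0.83, leaves room for a rise as large as that of Itgav.

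Itga1, the collagen-binding alpha 1 chain, had the largest fold change of the 10 in both lines. It read 46 and 39 in WT and 71 and 70 in cKO of the Mettl3 line, and 79 and 84 in WT and 226 and 235 in cKO of the Virma line. The Virma cKO libraries stood far above the other 6, and the Mettl3 cKO libraries lay between the 2 WT groups. The rise was 2.81-fold in Virma cKO (log2 1.49 ± 0.16 SE, adjusted p = 8.19e-08) and 1.65-fold in Mettl3 cKO (0.72 ± 0.16 SE, adjusted p = 6.27e-04). Mettl3 WT holds only about 14 and 18 reads of Itga1, and the 2 WT groups differed by 0.93 ± 0.16 SE (adjusted p = 6.39e-05), more than Mettl3 cKO differed from Mettl3 WT. The SE of 0.16 comes from a spread shared by all 4 groups, with no weight for the fewer reads in Mettl3 WT. It may therefore be too small, and the adjusted p too low, in comparisons with Mettl3 WT. With voom, a form of limma that weights values by read number, Itga1 still passed as higher in Mettl3 cKO and in Virma WT than in Mettl3 WT. Against Virma WT, Mettl3 cKO was at −0.21 (adjusted p = 0.272). The order of the 4 groups in Itga1 was the same as in the summed fibroblast markers, and the part of those markers in it was not tested.

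The fibronectin receptor chain Itga5 was the one alpha chain to fall in Virma cKO. It read 2524 and 2739 in WT and 1980 and 1958 in cKO of the Virma line (0.75-fold, log2 −0.42 ± 0.04 SE, adjusted p = 9.01e-09). In the Mettl3 line the values were 3130 and 3135 in WT and 3124 and 3148 in cKO, which overlapped (0.00 ± 0.04 SE, adjusted p = 0.976, 95% interval −0.08 to 0.08). After removal of a trend of the fold change with the length and GC content of genes, Itga5 in Mettl3 cKO became −0.16 (adjusted p = 4.26e-04). Its ligand Fn1, fibronectin, named outside the rule for examples and after its values were seen, was slightly lower in both knockouts, by −0.06 and −0.10 on the log2 scale (adjusted p = 0.0151 and 3.28e-04): 14934 and 14666 in WT and 14041 and 14273 in cKO of the Mettl3 line, and 15631 and 15860 in WT and 14803 and 14520 in cKO of the Virma line.

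Itgav, which carries the alpha v chain of RGD-binding integrins, changed in opposite directions in the 2 lines. It read 691 and 646 in WT and 518 and 540 in cKO of the Mettl3 line, a fall by 0.34 on the log2 scale (SE 0.06, adjusted p = 7.57e-05). In the Virma line it went from 727 and 757 in WT to 1227 and 1286 in cKO, a 1.69-fold rise (0.76 ± 0.06 SE, adjusted p = 1.01e-09). Once the trend with length and GC was removed, the fall in Mettl3 cKO was −0.11 and no longer passed (adjusted p = 0.125). Itgb5, the beta chain paired with alpha v alone, rose in both: 1144 and 1112 against 1321 and 1435 in the Mettl3 line (0.29 ± 0.05 SE, adjusted p = 4.52e-05), and 1112 and 1084 against 1534 and 1521 in the Virma line (0.48 ± 0.05 SE, adjusted p = 4.99e-08). The rise in Mettl3 cKO ended with the same correction (0.08, adjusted p = 0.173).

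Itgb4, which links alpha 6 to keratin, was lower in Virma cKO. It read 461 and 544 in WT and 469 and 469 in cKO of the Mettl3 line, and 511 and 537 in WT and 367 and 349 in cKO of the Virma line. The fall in the Virma line was 0.68-fold (log2 −0.55 ± 0.08 SE, adjusted p = 6.82e-06), and the Mettl3 groups overlapped (−0.09 ± 0.08 SE, adjusted p = 0.334). That value in the Mettl3 line hung on the WT library used: without Mettl3 WT replicate 1 it was −0.21 (adjusted p = 0.021), and without replicate 2 it was 0.02 (adjusted p = 0.808). Once the trend with length and GC was removed it was −0.29 (adjusted p = 0.0037).

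Dag1 encodes both chains of dystroglycan, the laminin receptor outside the integrin family. It read 5786 and 5643 in WT and 6217 and 6073 in cKO of the Mettl3 line, and 6908 and 6506 in WT and 11396 and 11002 in cKO of the Virma line. Virma cKO stood far above the rest, whereas the other 3 groups followed each other closely. The order of the group means was again that of the summed fibroblast markers, whose part in it was not tested. The rise was 1.67-fold in Virma cKO (0.74 ± 0.03 SE, adjusted p = 3.71e-14), the smallest p among the 10, and 1.08-fold in Mettl3 cKO (0.10 ± 0.03 SE, adjusted p = 0.00582). The small rise in Mettl3 cKO was lost once the trend with length and GC was removed (0.07, adjusted p = 0.0713) and without Mettl3 cKO replicate 1 (0.09, adjusted p = 0.0667), and against Virma WT it turned to −0.13 (adjusted p = 0.00129).

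**Figure D2:**
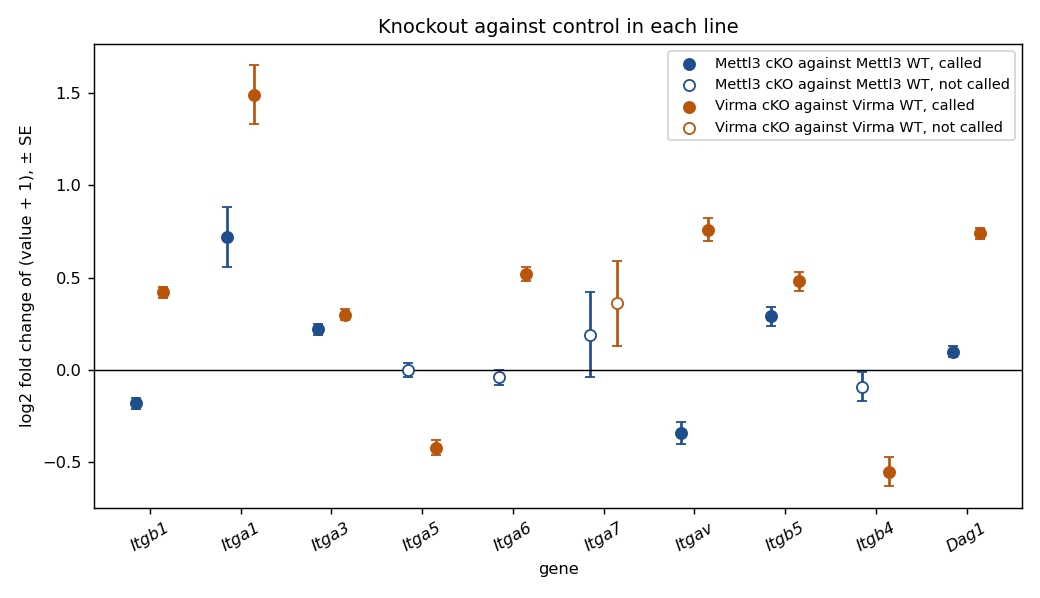
Log2 fold changes of (value + 1) with their standard errors for the 10 genes (x axis), Mettl3 cKO against Mettl3 WT in blue and Virma cKO against Virma WT in orange, from 2 libraries a group; filled points passed an adjusted p of 0.05. Itgav and Itgb1 lie below 0 in blue and above 0 in orange, and Itga1 has the largest orange value, 1.49.

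The difference between the 2 effects was tested as an interaction, which all 4 groups enter. It passed for 8 of the 10 genes, 6 with a more positive effect in the Virma line and 2 with a more negative one, where 46.6% of all genes tested passed (21.2% higher, 25.4% lower). Scaling by totals turned the split of all genes from 3032 higher and 3630 lower to 4097 and 2706. The median difference over the 10 was 0.37, beside −0.02 over all genes. Itgav differed most, by 1.10 ± 0.08 SE (adjusted p = 2.33e-09), followed by Itga1 at 0.77 ± 0.22 SE (adjusted p = 0.00802), Dag1 at 0.64 ± 0.04 SE (adjusted p = 2.87e-10) and Itgb1 at 0.59 ± 0.04 SE (adjusted p = 1.20e-09). For Itga1 the difference was lost once the trend with length and GC was removed (0.28, adjusted p = 0.338), with each Virma pair counted as 1 sample (0.77, adjusted p = 0.129) and without Virma cKO replicate 2 (0.74, adjusted p = 0.052). Itga6 differed by 0.56 ± 0.06 SE (adjusted p = 2.08e-07), Itga5 by −0.42 ± 0.05 SE (adjusted p = 2.43e-06) and Itgb4 by −0.45 ± 0.11 SE (adjusted p = 0.0028). The difference in Itgb5, 0.19 ± 0.07 SE (adjusted p = 0.0309), was lost under 7 of the alternatives, with adjusted p up to 0.181. Itga3 and Itga7 did not pass (0.08, 95% interval −0.01 to 0.17, and 0.17, 95% interval −0.49 to 0.84). Itga3 passed when libraries were scaled by their totals (0.19, adjusted p = 7.90e-04) and when the length and GC trend was removed (0.23, adjusted p = 6.68e-05).

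The control libraries of the 2 lines were not alike either. Virma WT differed from Mettl3 WT in 8 of the 10 genes, 4 higher and 4 lower, where 50.3% of all genes tested differed (27.8% higher, 22.5% lower). Itga1, Dag1, Itga6 and Itgav were higher in Virma WT, by 0.93, 0.23, 0.15 and 0.15, and Itga7, Itgb1, Itga3 and Itga5 were lower, by −0.73, −0.32, −0.26 and −0.25, all as log2 differences. Itgb4 and Itgb5 did not pass. The call of Itgav (adjusted p = 0.0426) was lost without Mettl3 WT replicate 2 (0.10, adjusted p = 0.183) and without Virma WT replicate 2 (0.12, adjusted p = 0.23), among other settings. The call of Itga7 (adjusted p = 0.0112) was lost without Virma WT replicate 2 (−0.50, adjusted p = 0.163). That of Itga6 was lost once the trend with length and GC was removed (0.04, adjusted p = 0.425). Removing that trend also turned the split of all genes from 3976 higher and 3217 lower to 3027 and 4169. Line, depth and any batch that goes with the line cannot be told apart here.

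Levels of different genes were compared only per kilobase of exon. In Mettl3 WT the order was Itgb1 at 1350 ± 0.866 (SD, n = 2), Dag1 at 899 ± 15.9, Itga3 at 848 ± 18.3, Itga5 at 635 ± 0.717, Itgb5 at 318 ± 6.37, Itga6 at 164 ± 0.392, Itgb4 at 71.6 ± 8.37, Itgav at 62.2 ± 2.96, Itga7 at 6.86 ± 0.612 and Itga1 at 2.29 ± 0.266. All neighbours in this order were separated library by library, Itgb4 and Itgav by little (65.7 and 77.6 against 64.3 and 60.1). That separation does not cover the choice of length. The merged exons of Itga6 span 9025 bases and its longest coding transcript 4310, and for Itgav the lengths are 10744 and 7054. With another length, genes of near level may change places, and shares and ratios between genes would shift. In Virma WT the ranges of Itgb1 (1108 and 1063) and Dag1 (1087 and 1023) overlapped, as did those of Itga1 (4.25 and 4.52) and Itga7 (4.82 and 3.46). In Virma cKO Dag1 led with 1762 ± 43.8, above Itgb1 at 1447 ± 15.1, and Itgb5 at 430 ± 2.59 lay above Itga5 at 399 ± 3.15, the reverse of their order in the other 3 groups. Itgav, at 117 ± 3.88, stood above Itgb4, at 51.0 ± 1.81.

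Within the 6 alpha chains Itga5 had a smaller share, and Itga3, Itga6 and Itgav a larger one, in Virma cKO. Itga5 made up a mean of 35.6% of their summed level per kilobase in Virma WT, with 34.8% and 36.3% by library, against 24.0% in Virma cKO, with 24.0% and 23.9%. Itga6 went from 12.1% to 15.6%, Itgav from 4.6% to 7.02% and Itga3 from 47.1% to 52.3%, and for all 4 chains the libraries of the groups did not overlap. In the Mettl3 line Itga3 went from 49.4% to 53.6%, Itga5 from 37.0% to 34.5% and Itgav from 3.62% to 2.67%. These shares depend on the exon length taken for each chain. They are descriptions of RNA per kilobase with no test, and say nothing of protein at the surface.

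**Figure D3:**
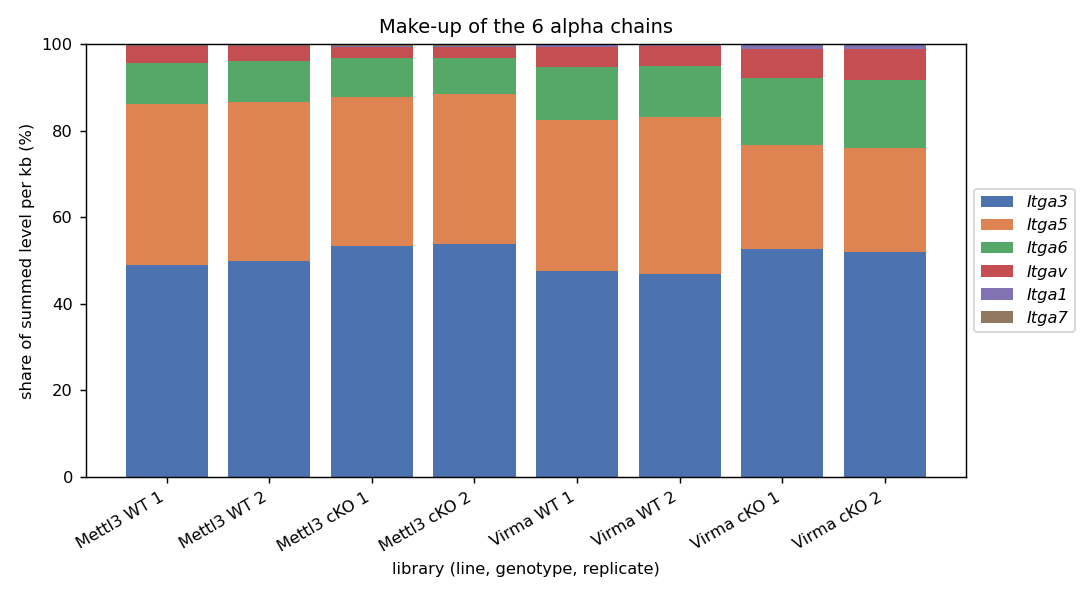
Share of each alpha chain in the summed level per kilobase of exon of the 6 alpha chains (y axis, percent), with a stacked bar for each of the 8 libraries. Itga5 is at 24.0% and 23.9% in the 2 Virma cKO libraries, against 34.8% and 36.3% in Virma WT; Itga1 and Itga7 are too low to see well.

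Ratios between partner chains were taken per kilobase, with no test. The alpha sum over Itgb1 was 1.26 and 1.28 in WT and 1.5 and 1.59 in cKO of the Mettl3 line, and 1.33 and 1.44 in WT and 1.16 and 1.14 in cKO of the Virma line, so it was higher in the knockout of the first line and lower in that of the second. Itgb5 over Itgav, the chains of the vitronectin receptor, went from a mean of 5.11 to 7.87 in the Mettl3 line and went from 4.48 to 3.68 in the Virma line, without overlap in either. In Mettl3 cKO the changes of both chains shrank to −0.11 for Itgav and 0.08 for Itgb5 once the trend with length and GC was removed, and neither passed. Itgb4 over Itga6 was 0.40 and 0.42 in WT and 0.20 and 0.19 in cKO of the Virma line, whereas in the Mettl3 line it was 0.40 and 0.48 in WT and 0.41 and 0.43 in cKO. Exon lengths came from another build than the authors' counts, which rescales a gene by the same factor in every library.

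Among the ligands, the chains of laminin-111 fell in both knockouts. Of the 11 laminin chains 5 rose and 4 fell in Virma cKO, with a median of 0.33, and 4 rose and 5 fell in Mettl3 cKO, with a median of −0.19. Counts in this and the lists below stand beside 61% of all genes tested in Virma cKO (29.2% higher, 31.8% lower). In Mettl3 cKO the share was 57.4% (28.1% higher, 29.3% lower). The genes that fell in both included Lama1, Lamb1 and Lamc1, which form laminin-111, the main laminin of the endoderm basement membrane. Lama1 went from 45971 and 45592 in Virma WT to 4794 and 4728 in Virma cKO (log2 −3.27 ± 0.02 SE, adjusted p = 1.10e-28), and from 60606 and 61032 in Mettl3 WT to 35428 and 35313 in Mettl3 cKO (−0.78 ± 0.02 SE, adjusted p = 4.80e-17). Lamb1 changed by −2.16 and −0.69 in the Virma and Mettl3 lines and Lamc1 by −1.86 and −0.69. The primitive endoderm markers fell in the same libraries, and their part in this result was not tested.

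Summed per kilobase, Lama1, Lamb1 and Lamc1 were at 17.6 and 18.1 times the level of Dag1 in WT and 9.93 and 10.1 times in cKO of the Mettl3 line, and 11.7 and 12.4 times in WT and 1.41 and 1.45 times in cKO of the Virma line. The ligand sum went from 12706 and 12638 per kilobase in Virma WT to 2526 and 2508 in Virma cKO while Dag1 rose. In both lines the knockout libraries had the lower ratio, and the Virma cKO libraries had the lowest of the 8.

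**Figure D4:**
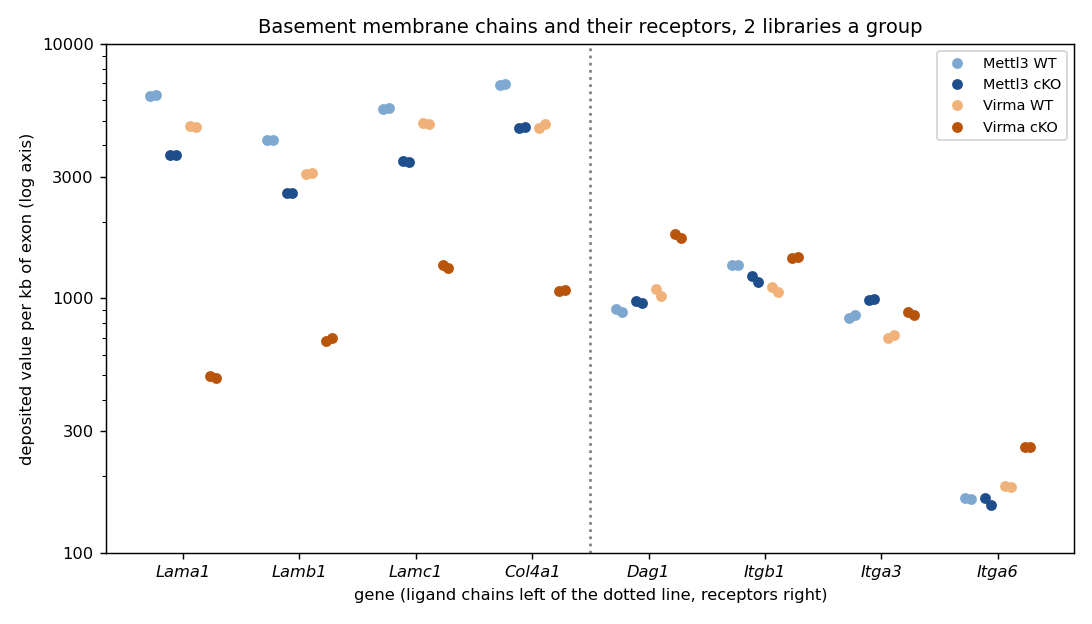
Deposited values per kilobase of exon (log y axis) of the basement membrane chains Lama1, Lamb1, Lamc1 and Col4a1, left of the dotted line, and of the receptors Dag1, Itgb1, Itga3 and Itga6, right of it; points are libraries, 2 a group. In Virma cKO the ligand chains drop, Lama1 to 495 and 488, and the 4 receptors stand above their Virma WT values.

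The 13 other ligand genes tested were 5 higher and 8 lower in Virma cKO (median −0.11) and 4 higher and 7 lower in Mettl3 cKO (median −0.06). Col4a1 and Col4a2, which encode the collagen IV chains of basement membranes and ligands of alpha 1 beta 1, fell by 2.15 and 2.03 in Virma cKO and by 0.56 and 0.51 in Mettl3 cKO. Egflam, the dystroglycan ligand pikachurin, went from 407 and 418 in Virma WT to 22 and 23 in Virma cKO (−4.14 ± 0.11 SE, adjusted p = 6.84e-17), and fell by 1.12 in Mettl3 cKO. Tnc, the matrix protein tenascin C, rose by 1.44 and 1.24.

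Partners of the laminin-binding integrins were read next. Of 8 genes of hemidesmosomes and of tetraspanins, the membrane proteins that bind laminin-binding integrins, 3 rose and 1 fell in Virma cKO and 2 rose and 3 fell in Mettl3 cKO. Plec, which encodes plectin, the linker between beta 4 and keratin, went from 2750 and 2850 in Virma WT to 4671 and 4955 in Virma cKO (0.78 ± 0.03 SE, adjusted p = 1.47e-13) and did not pass in Mettl3 cKO (0.02 ± 0.03 SE, adjusted p = 0.621). Dst, dystonin, fell by 0.46 in Mettl3 cKO and rose by 0.54 in Virma cKO. Itgb1 and Itgav were likewise opposite in sign between the lines, each knockout against its own WT. The fall of Itgav in Mettl3 cKO shrank to −0.11 and did not pass once the trend with length and GC was removed. Against Virma WT, Itgb1 in Mettl3 cKO was higher, at 0.14. The tetraspanins Cd81 and Cd9 changed by 0.12 and −0.09 in Virma cKO and by −0.11 and −0.25 in Mettl3 cKO.

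On the dystroglycan side, 3 of the 10 tested genes of the dystrophin complex rose and 3 fell in Virma cKO (median −0.12), and 1 rose and 4 fell in Mettl3 cKO (median −0.23). Over all genes tested, 61% and 57.4% passed. The syntrophin genes Sntb1 and Sntb2 rose by 0.60 and 0.32 in Virma cKO, the sarcoglycan gene Sgce rose by 0.31 and Sgcb fell by 0.50. In Mettl3 cKO, Sntb2 fell by 0.27 and Sgcb by 0.40, and Sntb1 and Sgce did not pass (−0.19 and 0.17). Utrn, named after its values were seen, encodes utrophin, the cytoplasmic partner of dystroglycan outside muscle. It read 2105 and 1943 in WT and 1016 and 983 in cKO of the Mettl3 line (−1.02 ± 0.05 SE, adjusted p = 4.38e-13), and 1836 and 1821 in WT and 1614 and 1627 in cKO of the Virma line (−0.17 ± 0.05 SE, adjusted p = 0.00234). Utrn was thus lower in both knockouts while Dag1 was higher in both, each against its own WT. The Dag1 rise in Mettl3 cKO was only 0.10 and did not pass once the trend with length and GC was removed. Against Virma WT, Dag1 in Mettl3 cKO was at −0.13.

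The genes of dystroglycan glycosylation gave 7 risers and 2 fallers among 16 tested in Virma cKO (median 0.14), and 9 risers and 2 fallers in Mettl3 cKO (median 0.27). Over all genes tested, 61% and 57.4% passed. B3galnt2 and Pomgnt1, glycosyltransferases that act on dystroglycan, rose in both, by 0.76 and 0.42 in Virma cKO and by 0.24 and 0.50 in Mettl3 cKO. Rxylt1, which extends the laminin-binding sugar, rose by 0.48 in Virma cKO and fell by 0.34 in Mettl3 cKO. Gmppb, which makes the mannose donor, fell by 0.51 in Virma cKO and did not pass in Mettl3 cKO (0.16, adjusted p = 0.0991).

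Inside the cell, 11 of 28 integrin adaptors and signalling genes rose and 8 fell in Virma cKO (median −0.01), and 7 rose and 13 fell in Mettl3 cKO (median −0.11). Over all genes tested, 61% and 57.4% passed. Both parvins, adaptors between integrin-linked kinase and actin, were called in opposite directions: Parvb fell by 1.36 in Virma cKO and 0.74 in Mettl3 cKO, and Parva rose by 0.55 and 0.32. Bcar1, the docking protein p130Cas, rose by 0.82 and 0.88, and Rap1b, a GTPase that activates integrins, fell by 0.56 and 0.45. Of the 12 other integrin chains tested, 1 rose and none fell in Virma cKO, and 2 rose and 2 fell in Mettl3 cKO. The riser in Virma cKO, named after its values were seen, was Itga4 (17 and 14 in Virma WT, 35 and 37 in Virma cKO, 1.17 ± 0.34 SE, adjusted p = 0.00535). In Mettl3 cKO, named likewise, Itga9 rose by 0.30 and Itgb7 by 0.43, and Itgb3, the other main partner of alpha v, fell by 0.89. Itga11 fell there by 0.98 (SE 0.41, adjusted p = 0.0458 in limma). It rests on about 9 and 9 reads in Mettl3 WT and 10 and 14 in Mettl3 cKO. The 17 other integrin genes summed to 715 to 801 over the 8 libraries.

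Markers of further cell types were read beside the members. Of 8 pluripotency markers 1 rose and 6 fell in Virma cKO and 3 rose and 4 fell in Mettl3 cKO, and of 7 trophectoderm markers 1 rose and 2 fell in Virma cKO and 3 rose and 3 fell in Mettl3 cKO. Only 4 of 8 endothelial and blood markers and 3 of 6 muscle markers passed the filter. Their sums ran from 612 to 971 and from 641 to 1319 over the 8 libraries, and Hbb-bs, a globin gene named here for its values, was at 0 in all. Of the endothelial and blood markers 2 fell in Virma cKO and 2 rose in Mettl3 cKO, and of the muscle markers 2 rose in Virma cKO and 1 fell in Mettl3 cKO.

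The transcripts of the 10 genes differ in how often they carry GGACT, the most common sequence around m6A. Counted on the longest coding transcript in GENCODE M21, the density ran from 0.52 per kilobase in Itgb1, with 2 matches in 3815 bases, to 2.13 per kilobase in Itgb5. The median over tested genes was 1.06, with quartiles of 0.65 and 1.53, and 3 members, Itga5 at 1.83, Itgav at 1.98 and Itgb5 at 2.13, lay above the upper quartile. Of these 3, Itgav and Itgb5 rose and Itga5 fell in Virma cKO. Itgb1, below the lower quartile, rose, as did Dag1 at 1.06. A match is not a measured methylation site, and no m6A data were used here.

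The genes whose pattern over the 4 groups lay closest to that of Dag1 were Cpd, Nexmif, Btg2, Nr1d2 and Zfp334, with distances of 0.00883, 0.0507, 0.0544, 0.0609 and 0.0631 between centred group means on the log2 scale, among 11047 genes searched. For Itga1 they were Il1r1, Cldn3, Pde4b, Spon2 and Tgfb3, with distances of 0.0722, 0.109, 0.155, 0.161 and 0.168. Over 4 groups a close match has few points to rest on, and it is given as a description.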

How the data were processed

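The 8 libraries were grouped by their titles. The submitters' processing notes name STAR 2.7.11b, Subread, DESeq2, FastQC 0.12.1, Trim Galore and build mm39; no source used here states what each did, the strand setting or the treatment of shared reads, so overlapping or antisense genes are uncertain. Per the labels' protocols, libraries were made with a SMARTer stranded and a VAHTS kit; which library had which is not given. The deposited signal is named a raw count, but, judged from the values themselves, it holds gene counts multiplied by 1 factor per library and rounded: all columns share an upper quartile, 3 of 8 lack whole numbers at regular steps, and in the other 5, where a read is worth less than 1, whole numbers at regular steps take in neighbouring read counts and are over-filled. Reads were estimated from those missing or over-filled numbers. A count model, foreseen at the start, was therefore replaced by limma 3.58.1 in R 4.3.3 (trend and robust variance) on log2(value + 1), with all 8 libraries, 4 groups, 4 residual degrees of freedom and a filter of at least 10 in at least 2 libraries, which kept 14287 of 21812 symbols. P-values were adjusted by Benjamini-Hochberg over all of them at a threshold of 0.05. The replacement was chosen after the data were seen; the scripts were tested on simulated data. Intervals are at 95%.

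On estimated reads the pairs of Mettl3 cKO, Virma WT and Virma cKO differed by more than sampling noise (chi-square per degree of freedom 1.63, 1.91 and 1.33). The Mettl3 WT pair, at 1.08, lay close to sampling noise. No pair was taken for a single library deposited again, and each library entered by itself. This does not show separate cultures. The Virma cKO pair read 0.914 on the deposited values, and its use as 1 sample was an alternative. Equal replicate numbers did not pair samples: correlations of deviations across genes ran from −0.015 to 0.015. Exon length and transcripts came from GENCODE M21 (GRCm38); 21144 symbols matched directly, 432 by older names and 236 not at all. Alternatives were other scalings, filters, pseudocounts of 0.5 and 5, a threshold of 0.01, voom on estimated reads and pooled Virma pairs. Further ones were each line alone, a replicate block, removal of a length and GC trend, another control and each library left out. The Mettl3 pairs were not pooled. Members and gene lists were chosen with earlier results of these data known. Named are all members, Mettl3 and Virma, up to 4 called genes per list with the largest Virma change and a mean log2 CPM of at least 2, and the 5 nearest patterns to Dag1 and to the member with the largest Virma change; exceptions are marked, and some genes the rule names are not reported here.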

Additional observations from a re-analysis of the deposited data

Results flagged for a closer look

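For 8 of the 10 genes the knockout effect differed between the lines by the interaction test of limma, which 46.6% of all genes tested passed. For Itga1 and Itgb5 the call was lost under some alternative settings. As the Virma effect minus the Mettl3 effect on the log2 scale, the difference was 1.10 for Itgav, 0.77 for Itga1, 0.64 for Dag1, 0.59 for Itgb1, 0.56 for Itga6 and 0.19 for Itgb5, and it was −0.45 for Itgb4 and −0.42 for Itga5. Itgav and Itgb1 passed the test in both lines with opposite signs, each knockout against its own WT. The fall of Itgav in Mettl3 cKO shrank to −0.11 and no longer passed once the trend with length and GC was removed. Against Virma WT, Itgb1 in Mettl3 cKO was higher, at 0.14. The Mettl3 gene did not differ between the groups of its own line, and the Mettl3 WT libraries were the shallowest; the part of either in these differences was not tested.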

How the results depend on the processing

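Across the 23 alternative settings the 10 genes gave 830 values over the 4 comparisons, of which 780 kept direction and side of the threshold. With direction kept, 31 lost the call and 7 gained it. The other 12 changed sign, and some of these also lost or gained a call. In Virma cKO 9 members passed in every setting. In Mettl3 cKO the sign changes were Itga5 at −0.16 and Itga6 at 0.04 with the length and GC trend removed, Itga5 at 0.00 with median-of-ratios scaling, Itgb4 (−0.21 to 0.02), Itga5 (0.00 without Mettl3 cKO replicate 2) and Itga6 (−0.09 to 0.01) on leaving out libraries, and, against Virma WT, Itga1 at −0.21, Itgb1 at 0.14 and Dag1 at −0.13. In the difference of effects Itga7 ran from −0.06 to 0.40 on leaving out libraries. Between the WT groups Itgav was −0.02 with the length and GC trend removed and Itgb4 ran from −0.05 to 0.18 on leaving out libraries. The cause was not tested. With each Virma pair as 1 sample, which leaves fewer samples, the genes called were 5773 in place of 8716 in Virma cKO, 4260 in place of 6662 in the difference and 4659 in place of 7193 between WT groups, where 5 members in place of 8 passed. Leaving out each library gave 6790 to 8453 genes and 5 to 7 members in Mettl3 cKO, 7226 to 9766 genes in Virma cKO, 5480 to 7517 genes and 6 to 8 members in the difference, and 5474 to 7588 genes and 6 to 8 members between WT groups; a group left with 1 library is assumed to vary like the others. With the replicate number as a block, 8307, 8802, 6778 and 7310 genes and 6, 9, 8 and 8 members passed, and no member call changed. Scaling by totals raised the median of all genes in Virma cKO to 0.15. The alternatives with DESeq2 and with its size factors in a count model were not run, because the values are not raw counts. Depth limits Itga1 and Itga7 in Mettl3 WT, at 14 to 23 estimated reads, and the SE shared by all groups may be too small there.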
